A study of Danio rerio with 20 samples.

Results

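Here 9 genes of the circadian clock and of the response to light were followed through early zebrafish development: cry5, rorca, per1a, per1b, per2, per3, nr1d1, nr1d2a and tefa. They are 9 of the 32057 gene rows of the table. The set was chosen by gene symbol after cry5 and rorca had been seen to be lower in MPNP than in PNP embryos at 8 hours post fertilization (hpf), so the 8 hpf pool difference is given as a description and supports nothing. Symbols in the name table settled 7 of the rows. The other 2 rows, ENSDARG00000012499 and ENSDARG00000056885, are both named only as per1, so which of them is per1a and which per1b could not be settled, and they are given by ID.

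Each library was made from poly(A)-selected RNA of a pool of about 50 whole embryos at 8, 10, 12, 14 or 16 hpf, with 2 libraries for each pool type at each stage, 20 in all. MPNP pools held un-genotyped offspring of fish that carried 1 mutant mdm2 allele (mdm2+/-) and were puma-/-, noxa-/- and p21-/-; PNP pools were the offspring of puma-/-, noxa-/-, p21-/- parents. Mdm2 is the ubiquitin ligase that holds p53 down, and puma, noxa and p21 mediate death and arrest downstream of p53. Those 3 mutations were thus present in every group, and no group carried the wild-type alleles. By Mendelian ratios a share of 25% without mdm2 would be found among MPNP embryos, but genotype shares were not measured, so a pool value mixes mutant, heterozygous and wild-type embryos.

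In vertebrates the clock is a feedback loop of transcription. Clock and Bmal proteins activate genes through E-box elements, and the period and cryptochrome proteins among the products repress that activation. Ror receptors activate and rev-erb receptors repress bmal genes, and PAR bZIP factors such as Tef act through D-box elements. Zebrafish cells respond to light directly, and genes such as per2, tefa and the 6-4 photolyase gene cry5, whose enzyme repairs ultraviolet damage to DNA with the energy of light, are known light-induced genes in this species. The labels used here give neither the light regime nor the clock time of collection, so stage, hours of light and time of day cannot be told apart. Nor do they say whether the MPNP and PNP pools of a stage shared them. A pool difference therefore cannot be told apart from a difference in parents, light or time of collection.

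Levels are given as TPM, a transcript's abundance as a share of the library after scaling by transcript length. Depth is unknown, since TPM keeps none. Each library held 13080 to 15326 genes at 1 TPM or more, and Pearson's r across genes for both libraries of one group was 0.973 to 0.982. Markers of several tissues were present: the notochord and tailbud gene tbxta was at 328 to 400 TPM at 8 hpf, and the hatching gland gene he1.1 went from at most 0.66 TPM at 8 hpf to between 579.5 and 730 TPM at 16 hpf. Of the photoreceptor markers, the 3 rows named rho stayed at or under 2.05 TPM at 8 and 16 hpf. For the mdm2 transcript, MPNP pools had 133 ± 23 TPM at 8 hpf and 321 ± 5.7 TPM at 16 hpf, where PNP pools had 118 ± 8.8 and 114 ± 0.89 TPM (SD, n = 2). Tests used limma on log2(TPM + 1) over the 14774 genes with a mean of at least 1 TPM, with Benjamini-Hochberg adjustment over all of them, and "called" means an adjusted p under 0.05. Of the 9 members, 6 passed that filter (cry5, rorca, per2, per3, tefa and the per1 row ENSDARG00000012499) and 3 did not.

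The photolyase gene cry5 (ENSDARG00000019498) had the largest pool difference of the tested members at 10 hpf. At 8 hpf cry5 and rorca were both at -0.87 on the log2(TPM + 1) scale. The cry5 differences at 8 and 10 hpf were known when the members were chosen. Those of cry5 at the later stages were smaller. At 8 hpf its level was 11.45 and 12.05 TPM in the MPNP libraries and 22.04 and 22.7 TPM in the PNP libraries. At 10 hpf it was 9.3 and 10.28 TPM in MPNP and 16.64 and 18.97 TPM in PNP. The pools did not overlap at either stage. How many of all genes had pools without overlap at a stage was not counted. Such separation of 2 against 2 libraries is therefore only a description, here and for the other members. At 12 hpf the libraries were at 7.75 and 7.73 TPM in MPNP and 8.64 and 9.31 TPM in PNP, still without overlap. At 14 hpf they were at 6.8 and 7.11 TPM against 6.47 and 8.33 TPM, and the pools overlapped. By 16 hpf the MPNP libraries were at 2.4 and 2.79 TPM and the PNP libraries at 2.77 and 3.36 TPM, again overlapping.

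**Figure D1:**
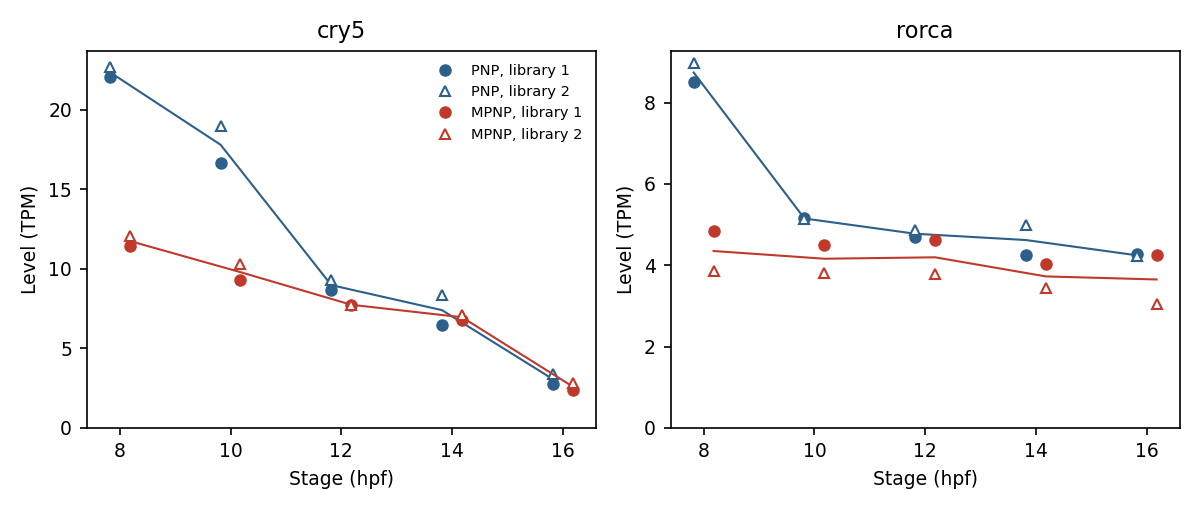
Levels of cry5 (left) and rorca (right) in TPM against stage in hpf for the 20 libraries; red is MPNP, blue is PNP, filled circles are libraries numbered 1, open triangles libraries numbered 2, lines join the means of 2, and the pools are drawn slightly apart sideways. The cry5 pools are far apart at 8 and 10 hpf and meet at 14 hpf, while both rorca PNP libraries lie above both MPNP libraries from 8 to 14 hpf, with the widest gap at 8 hpf, and the pools overlap at 16 hpf.

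Relative to PNP, the mean MPNP level of cry5 was 52.5% at 8 hpf, 55.0% at 10 hpf, 86.2% at 12 hpf, 94.0% at 14 hpf and 84.7% at 16 hpf. A transcript absent only from the expected 25% of embryos without mdm2 would leave 75%, if all embryos gave equal RNA. Which embryos of the pools differed was not tested. On the log2(TPM + 1) scale the difference at 10 hpf was -0.80 ± 0.13 (SE; limma adjusted p = 0.032), which made cry5 the 1 member called at that stage, where 0.0745% of all genes tested were called as lower. That call was already known when the members were chosen, and it did not pass once any 1 of the 4 libraries of the stage was left out (limma adjusted p from 0.092 to 0.27), although the difference stayed between -0.89 and -0.71. It was also lost without an MPNP library at 12 or 14 hpf or a PNP library at 12 hpf (limma adjusted p from 0.051 to 0.056). At 12, 14 and 16 hpf 0 members were called by limma, and 0 had an unadjusted p under 0.05; the shares of all genes called at these stages were 0.291%, 0.684% and 1.39%. In whole-embryo RNA, fewer cells that carry a transcript and less of it per cell cannot be told apart.

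Averaged over 10 to 16 hpf (4 stages, 8 libraries per pool), cry5 fell by 0.31 ± 0.07 on the log2 scale in MPNP (limma adjusted p = 0.016). It was the 1 member called, among 4.33% of all genes called and 2.00% called as lower. MPNP was lower in 7 of 8 pairs of libraries of the same stage and number, the exception being the libraries numbered 1 at 14 hpf (0.06). How many of all genes had 7 lower pairs of 8 was not counted, which also limits the counts of per2 and per1 below. An exact permutation of the pool labels within stages gave a two-sided p of 0.0093, where the smallest possible was 0.0015, and exact sign changes within the 8 pairs, a test added after the data were seen, gave 0.016 with a smallest possible value of 0.0078. Here and for the other members, both tests take the libraries of different stages as independent. The labels do not say whether libraries of the same number share a cross over the stages, and if they do these p-values are too small. Since the 10 hpf difference was known when the members were chosen, this average is not independent of the choice. Most of the average came from 10 hpf: over 12 to 16 hpf alone, a window chosen after the values were seen, the difference was -0.15 ± 0.08 and did not pass (limma adjusted p = 0.52). Whether the difference changed between 10 and 16 hpf was tested directly with an F test, in which 0 members passed and 0.0948% of all genes did; cry5 had an unadjusted p of 0.0072 and an adjusted p of 0.78 (0.14 with the library number within stage as a block).

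A developmental offset was estimated for each library from the tested genes outside the members and the clock and light lists. By this estimate MPNP pools lay behind PNP pools at 4 of 5 stages, by 0.19 h at 8 hpf and 0.38 h at 10 hpf. At 16 hpf they lay ahead by 0.21 h. Libraries of 1 group differed as well, with -0.02 and -0.36 h for MPNP at 12 hpf, and the gaps were not tested. With the offset removed the difference of cry5 at 10 hpf was -0.88 (limma adjusted p = 0.018), beside -0.80 without that correction. The offset comes from the same libraries, and whether a delay has a part in the cry5 difference was not tested.

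The nuclear receptor gene rorca (ENSDARG00000057231) had its largest pool difference at 8 hpf, the stage used in the choice of members. The contrast with its smaller later differences is therefore only a description. At 8 hpf its level was 4.85 and 3.85 TPM in MPNP and 8.5 and 8.98 TPM in PNP. With cry5 it was 1 of the 2 members called at 8 hpf, against 0.129% of all genes called as lower, a comparison that the choice of members used and from which nothing is read. In the PNP pools rorca then dropped to 5.16 and 5.14 TPM at 10 hpf, while the MPNP libraries were at 4.51 and 3.81 TPM. From 12 hpf on MPNP libraries ranged from 3.05 to 4.61 TPM and PNP libraries from 4.22 to 4.99 TPM. The MPNP libraries numbered 2 were the lowest at each of these stages, and the MPNP libraries numbered 1 were close to PNP.

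The mean MPNP level of rorca was 49.8% of PNP at 8 hpf and between 80.6% and 87.9% at the later stages. Over 10 to 16 hpf the difference was -0.21 ± 0.08 on the log2 scale, which did not pass (limma adjusted p = 0.18, unadjusted p = 0.017). All 8 pairs were lower in MPNP, from -0.44 to -0.01, and the exact permutation p within stages was 0.0031 (two-sided), with 0.0078 from exact sign changes within pairs. The pairs numbered 1 lay between -0.16 and -0.01 and those numbered 2 between -0.44 and -0.29. Pairs of different stages may thus not be independent, as both tests take them to be. A pattern of 8 lower pairs of 8 was found in 5.36% of all genes tested. The estimates differed by library number: within the libraries numbered 1 the difference was -0.06, and within those numbered 2 it was -0.36 (limma adjusted p = 0.81 and 0.18). These estimates were not compared by a test. In the F test for a change between 10 and 16 hpf rorca had an unadjusted p of 0.96.

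Among the genes that act in the loop itself, tefa (ENSDARG00000039117), which encodes a D-box activator of the PAR bZIP family, was the most abundant member, with an MPNP mean between 82.7% and 94.6% of the PNP mean at the 5 stages. At 8 hpf its level was 28.49 and 31.82 TPM in MPNP and 35.43 and 36.03 TPM in PNP. At 10 hpf it was 37.91 and 42.5 TPM in MPNP and 40.57 and 56.65 TPM in PNP, overlapping and with a wide PNP spread. At 12 hpf the MPNP libraries, at 33.07 and 36.93 TPM, lay below the PNP libraries, at 39.51 and 42.97 TPM. The pools overlapped at 14 hpf (30.5 and 33.53 against 32.39 and 39.54 TPM) and at 16 hpf (19.98 and 23.8 against 20.98 and 25.28 TPM).

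In every pair of libraries with the same stage and number the MPNP library had the lower tefa level. Over 10 to 16 hpf this held in 8 of 8 pairs, by 0.07 to 0.41 on the log2 scale. All 8 pairs were lower in 5.36% of all genes tested over these stages. For tefa the average over these stages was -0.18 ± 0.08 and did not pass (limma adjusted p = 0.32). The exact two-sided permutation p was 0.040. Exact sign changes within the 8 pairs gave 0.0078, the smallest value that test can give. It takes the 8 pairs as independent, which the labels do not settle. With the library number within stage as a block the standard error was 0.04 and tefa passed (limma adjusted p = 0.024); 7.58% of all genes were called as lower in that fit. The block removes a difference between library numbers, which was called for tefa as for many other genes and is described below.

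The period genes encode repressors of Clock and Bmal. The light-induced per2 (ENSDARG00000034503) was low at 8 hpf, at 2.32 and 2.6 TPM in MPNP and 3.48 and 3.18 TPM in PNP, without overlap. It was at 3.71 and 3.14 TPM in MPNP at 10 hpf and at 4.45 and 3.84 TPM in PNP, where the highest MPNP library was below the lowest PNP library. The later stages overlapped: 6.33 and 4.7 against 7.87 and 5.31 TPM at 12 hpf, 6.75 and 6.2 against 6.32 and 7.52 TPM at 14 hpf, and 2.58 and 2.43 against 2.75 and 2.48 TPM at 16 hpf. Over 10 to 16 hpf per2 differed by -0.14 ± 0.09 and was lower in 7 of 8 pairs, which did not pass (limma adjusted p = 0.56, exact permutation p = 0.11). Exact sign changes within the 8 pairs gave a two-sided p of 0.031.

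per3 (ENSDARG00000010519) was at 4.81 and 5.72 TPM in MPNP and 6.22 and 7.99 TPM in PNP at 8 hpf, without overlap. At 10 hpf the MPNP libraries, at 2.68 and 2.87 TPM, lay under the PNP libraries, at 3.36 and 3.22 TPM. From 12 hpf on the order was mixed, with 4.4 and 2.47 against 3.3 and 2.86 TPM at 12 hpf, 1.71 and 1.39 against 1.39 and 1.99 TPM at 14 hpf, and 1.28 and 1.84 against 1.21 and 1.35 TPM at 16 hpf. The average difference over 10 to 16 hpf was -0.00 ± 0.10, with 4 of 8 pairs lower in MPNP (limma adjusted p = 1.00, exact sign changes within pairs p = 0.98).

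The per1 row ENSDARG00000012499 was close to PNP in MPNP at 8 and 10 hpf. It was at 3.37 and 3.47 TPM in MPNP and 3.55 and 3.85 TPM in PNP at 8 hpf, and at 1.35 and 1.74 against 1.37 and 1.8 TPM at 10 hpf. From 12 hpf on all libraries were between 0.1 and 0.45 TPM. At 14 hpf the MPNP libraries, at 0.15 and 0.17 TPM, lay below the PNP libraries, at 0.24 and 0.26 TPM, and the MPNP mean was 90.9%, 64.0% and 81.1% of PNP at 12, 14 and 16 hpf. The difference over 10 to 16 hpf was -0.05 ± 0.06, with 7 of 8 pairs lower in MPNP (limma adjusted p = 0.86, exact permutation p = 0.20, exact sign changes within pairs p = 0.055); at levels so far under the pseudocount of 1 TPM the log2 scale shows little of any change.

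The remaining members were hardly detected. The other per1 row, ENSDARG00000056885, was listed between 0 and 0.08 TPM, with 5 libraries at 0. The rev-erb genes nr1d1 (ENSDARG00000033160), which encodes a repressor of bmal genes, and nr1d2a (ENSDARG00000003820) were listed between 0 and 0.36 TPM and between 0 and 0.27 TPM, with 4 and 3 libraries at 0. No fold is given for them. Their levels were thus near the bottom of the scale in both pools at all 5 stages.

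**Figure D2:**
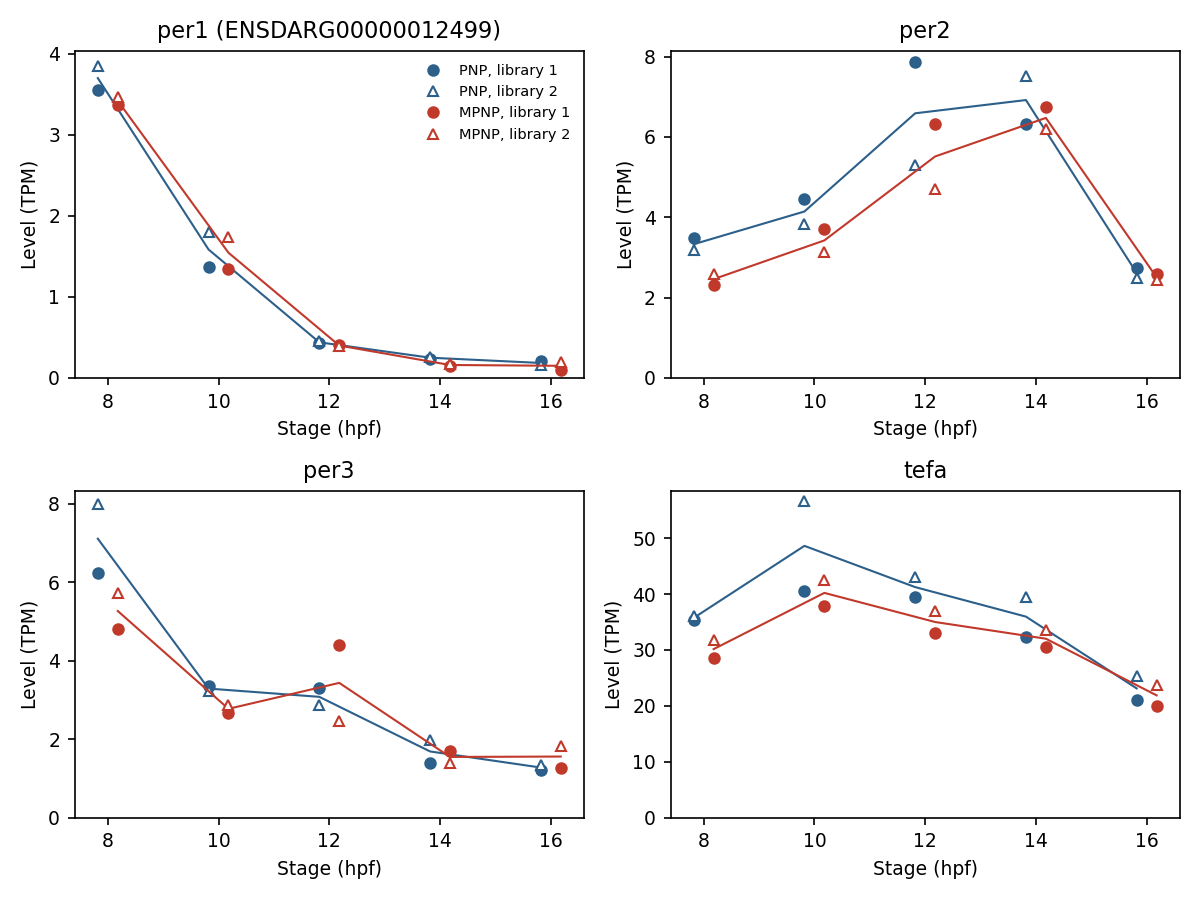
Levels in TPM against stage in hpf of per1 (ENSDARG00000012499), per2, per3 and tefa, with the same colours and symbols as for cry5 and rorca (red MPNP, blue PNP, lines through the means of 2 libraries). In both pools per1 declines from 8 hpf, and the highest mean is at 8 hpf for per3, 14 hpf for per2 and 10 hpf for tefa. The per3 mean in MPNP is higher at 12 hpf (3.435 TPM) than at 10 hpf (2.775 TPM).

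**Figure D3:**
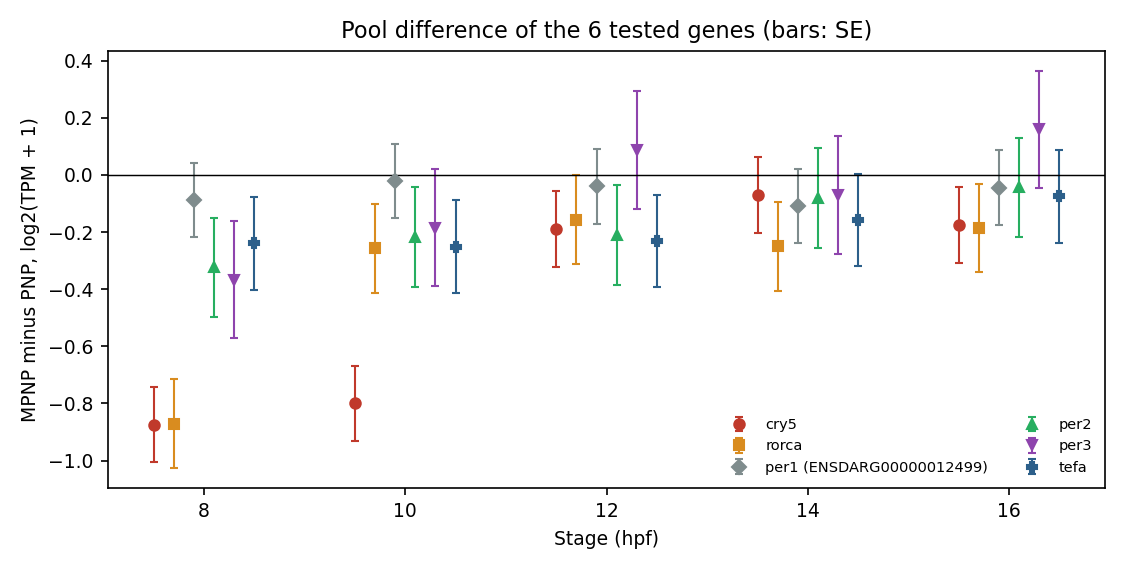
MPNP minus PNP difference on the log2(TPM + 1) scale for the 6 tested members at each stage, with bars for the limma SE. cry5 stands at -0.87 and -0.80 at 8 and 10 hpf and rorca at -0.87 at 8 hpf; the other points lie between -0.37 and 0.16.

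Placed side by side at 8 hpf, as a description, all 6 tested members had negative differences: -0.87 for cry5 and rorca, -0.37 for per3, -0.32 for per2, -0.24 for tefa and -0.09 for per1. The median of all genes tested was -0.03. At 10 hpf the 6 differences were again negative, from -0.80 (cry5) to -0.02 (per1), with a median of -0.08 over all genes. At 12 and 16 hpf per3 was on the other side (0.09 and 0.16), and at 14 hpf all 6 were negative. Quantile normalization, which forces all libraries onto 1 distribution of values, turned the sign of per1 at 10 hpf (0.06).

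The levels of all 6 tested members changed over the stages. In the PNP pools, which carry no mdm2 mutation, an F test over the 5 stages called 6 of 6, beside 63.5% of all genes. Between 8 and 16 hpf 5 of the 6 fell, beside 26.6% of all genes called as lower. The exception was per2. The PNP levels of cry5 and rorca at 8 hpf were part of the choice of members. For these genes the F test and the fall from 8 hpf are thus descriptions. As a fold of TPM the largest falls were those of per1 (ENSDARG00000012499) and cry5. The per1 row went from 3.7 to 0.185 TPM, 20.0-fold, ending far under 1 TPM. The level of cry5 went from 22.4 ± 0.47 to 3.06 ± 0.42 TPM (SD, n = 2), 7.30-fold. On the log2 scale the changes were -1.99 ± 0.13 for per1 and -2.53 ± 0.13 for cry5 (limma adjusted p = 2.2e-08 and 2.9e-09). per3 fell by 1.82 ± 0.21, rorca by 0.89 ± 0.16 and tefa by 0.61 ± 0.16 (limma adjusted p = 4.2e-06, 0.00021 and 0.0048). The tefa call was lost without the PNP library numbered 1 at 16 hpf (-0.48, limma adjusted p = 0.053).

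The steps between neighbouring stages showed that the members did not share 1 time course. From 8 to 10 hpf 8.66% of all genes were called as lower in PNP. In that step cry5, per2 and tefa did not pass, with unadjusted limma p of 0.033 for cry5 (-0.32) and 0.024 for tefa (0.41). The members that fell were rorca (-0.66 ± 0.16), per1 (ENSDARG00000012499, -0.87 ± 0.13) and per3 (-0.91 ± 0.21), with limma adjusted p of 0.0078, 0.00037 and 0.0062. This count was 1 when the PNP library numbered 2 at 8 hpf was left out. The rorca step starts from the PNP level at 8 hpf that was used in the choice of members, so it is a description. The per1 falls at this step and the next are descriptions as well, since levels at 8 and 10 hpf brought that row past the filter. In MPNP the rorca mean was 4.35 TPM at 8 hpf and 4.16 TPM at 10 hpf. From 10 to 12 hpf cry5 (-0.91 ± 0.13) and per1 (-0.84 ± 0.13) fell and per2 rose (0.54 ± 0.17), with limma adjusted p of 0.00029, 0.00048 and 0.039, beside 23.7% of all genes called. The cry5 step starts from the PNP level at 10 hpf. The pool difference there was known when the members were chosen, so this step of cry5 is a description. From 12 to 14 hpf 0 members were called by limma, with 1 (per3) at an unadjusted p under 0.05, against 9.19% of all genes. From 14 to 16 hpf cry5 (-1.04 ± 0.13), per2 (-1.13 ± 0.17) and tefa (-0.61 ± 0.16) fell (limma adjusted p = 0.00044, 0.0019 and 0.049), beside 1.83% of all genes called as lower.

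The PNP mean of cry5 went down at every step, and the steps that passed were those from 10 to 12 and from 14 to 16 hpf. The step from 10 to 12 hpf is a description, as said above. Between 12 and 14 hpf its levels of 8.98 ± 0.47 and 7.40 ± 1.3 TPM (SD, n = 2) did not overlap, but the step did not pass (-0.26 ± 0.13, limma adjusted p = 0.30), and the sizes of the steps were not compared by a test. per2 rose to 6.92 ± 0.85 TPM at 14 hpf and was 2.65-fold lower at 16 hpf. tefa was highest at 10 hpf, at 48.6 ± 11 TPM, and 2.10-fold lower at 16 hpf. The step of rorca that passed was the one before 10 hpf, and its later neighbouring levels, between 5.15 ± 0.01 and 4.25 ± 0.04 TPM, did not pass the test. The highest mean of each gene fell at the same stage in MPNP as in PNP, but rorca declined 1.19-fold from 8 to 16 hpf in MPNP against 2.06-fold in PNP, and cry5 4.53-fold against 7.30-fold; those ratios hold the 8 hpf values used in the choice and were not tested.

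The library number moved with some members. Across the 10 groups tefa was higher by 0.20 ± 0.04 and cry5 by 0.13 ± 0.04 in the libraries numbered 2 (limma adjusted p = 0.00079 and 0.026), 2 of 6 members, beside 40.4% of all genes called as higher. The median of all genes in that comparison was 0.10, so relative to it cry5 did not stand out, and with quantile normalization its value was -0.00 and that of tefa 0.08 (limma adjusted p = 0.95 and 0.094). The cry5 call was also lost without 1 of the PNP libraries at 10, 14 or 16 hpf (limma adjusted p from 0.051 to 0.063). The labels do not say what the number stands for, and its part in the pool differences beyond the blocked values given here was not tested.

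Further clock and light genes came from 8 lists, of which 85 gene rows were matched and 51 tested. Averaged over 10 to 16 hpf 5 of the 51 were called, 1 higher and 4 lower in MPNP, where 4.33% of all genes were called, 2.32% as higher and 2.00% as lower. With the block 3 were higher and 7 lower, where 13.3% of all genes were called, 5.71% as higher and 7.58% as lower. The median of the 51 was -0.05, beside -0.03 for all genes. Higher was csnk1da (0.27 ± 0.06, limma adjusted p = 0.013), which encodes a casein kinase 1 delta that phosphorylates period proteins. Lower were gsk3bb, a glycogen synthase kinase 3 beta gene (-0.56 ± 0.10), bhlhe41, an E-box repressor (-0.34 ± 0.07), and the cryptochrome gene cry4 (-0.28 ± 0.07), with limma adjusted p of 0.0064, 0.0097 and 0.045, besides cry5.

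By list, 0 of 5 clock activators passed in this average (limma), and 0 had an unadjusted p under 0.05. Their rows are the 2 each named clock and bmal1, and bmal2, and their median was -0.01. Of 7 tested period and cryptochrome genes 0 passed, and 0 without adjustment (median -0.12; cry3a passed with the block, limma adjusted p = 0.033). The counts were 0 of 4 ror and rev-erb genes and 0 of 5 D-box factors (1 and 3 at an unadjusted p under 0.05), where with the block tefa was lower and its paralog tefb higher (0.25 ± 0.09; limma adjusted p = 0.18, and 0.044 with the block). Among 8 kinases and ubiquitin ligase genes 2 passed, among 8 other E-box repressors and outputs 1, and among 10 photolyases and light-induced repair genes 2 (cry5 and cry4). The other photolyase genes of that list were at -0.05 (cry-dash, limma adjusted p = 0.87) and -0.11 (cpdp, limma adjusted p = 0.82), and the repair genes xpc and ddb2 at -0.02 and -0.16 (limma adjusted p = 0.99 and 0.53). Of 4 tested opsin genes 0 passed by limma, and 0 without adjustment.

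**Figure D4:**
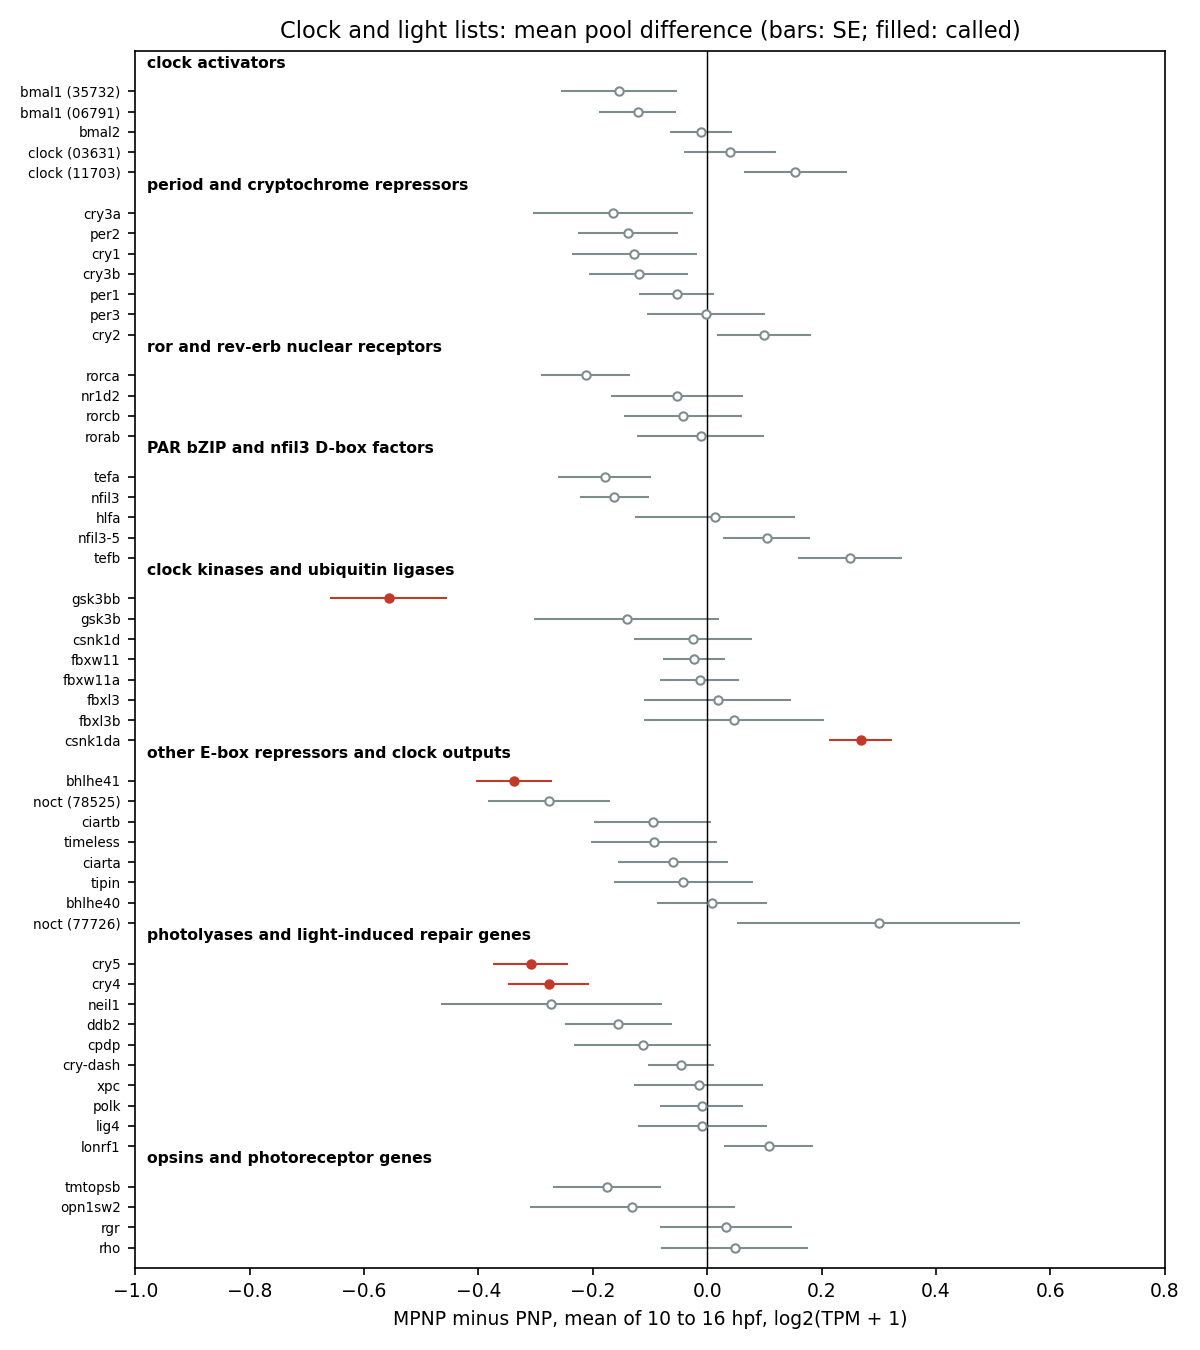
Mean MPNP minus PNP difference over 10 to 16 hpf, on the log2(TPM + 1) scale with limma SE, for the 51 tested genes of 8 clock and light lists, sorted within each list; filled red points are called, and digits after a name are the end of the ID where a symbol has 2 rows. Points crowd around 0, with gsk3bb at -0.56 lowest and csnk1da the 1 called gene above 0.

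Over the stages the lists did not move together. In PNP between 8 and 16 hpf both rows named bmal1 rose, ENSDARG00000035732 from 0.395 to 8.16 TPM (2.74 ± 0.20 on the log2 scale) and ENSDARG00000006791 from 4.70 to 10.1 TPM (0.96 ± 0.14), while 1 row named clock fell (ENSDARG00000011703, -0.98 ± 0.18; limma adjusted p from 7.4e-08 to 0.00032). Of 7 period and cryptochrome genes 4 fell (per1, per3, cry1 and cry2) and 1 rose (cry3b, 0.68, limma adjusted p = 0.0037). The E-box repressors bhlhe40 and bhlhe41 rose, from 0.115 to 7.72 TPM and from 1.66 to 7.52 TPM, and so did ciartb, from 1.23 to 4.92 TPM. Of the clock output noct, the row ENSDARG00000077726 fell from 43.7 to 2.71 TPM. The other noct row, ENSDARG00000078525, did not pass (-0.45, limma adjusted p = 0.082). Among the D-box factors nfil3-5 fell from 26.2 to 4.11 TPM and tefb from 6.84 to 1.97 TPM, while hlfa rose (0.78, limma adjusted p = 0.025). Within the photolyase and repair list 4 genes fell and 2 rose: cry5 and cry-dash (from 16.2 to 9.44 TPM) were among the falls, and cry4 (from 9.91 to 20.1 TPM) and ddb2 (from 7.61 to 14.3 TPM) were the rises. rorab and rorcb, paralogs of rorca in the receptor list, rose from 0.78 to 2.32 and from 0.55 to 1.59 TPM (limma adjusted p = 0.0031 and 0.0064). This was opposite to rorca, whose fall starts from the 8 hpf level used in the choice of members. Of 8 kinase and ligase genes 4 fell, among them csnk1d (-1.49) and csnk1da (-0.45), and gsk3b rose (0.94); of 4 opsin genes rgr rose (3.22) and tmtopsb fell (-1.20). In all 13 of the 51 list genes were called as higher and 19 as lower at 16 hpf, where 37.7% of all genes were called as higher and 26.6% as lower. The median of the 51 was -0.25, against 0.17 for all genes. Rows under 1 TPM at 8 or 16 hpf, such as per1, passed the filter through their other stages, so their changes are descriptions.

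Among all genes tested with a symbol not derived from a clone, the 5 with the profile most like cry5 over the 20 libraries were peli2 (ENSDARG00000029045), depdc7, ppp1cab, ik and pid1, with Pearson's r of log2 levels from 0.944 to 0.963. After the mean of each stage was subtracted they were top3a (r = 0.939), shroom4, pimr188, nrp1 (ENSDARG00000102153) and sumf1 (r = 0.910). For rorca they were ftr86 (r = 0.870), cep70, duox, psma2 and specc1l (r = 0.824) over the 20 libraries, and fam53b (r = 0.930), slc17a7 (ENSDARG00000016480), slc39a9, apbb2 and nkd1 (r = 0.902) within stages. These libraries share stages and library numbers, the 8 hpf values are among the points, and no test belongs to the ranks. Between members, the highest correlation within stages was that of cry5 with rorca (r = 0.759). Both were chosen for their 8 hpf pool difference, which is among these points, so nothing is read from this rank. Next were cry5 with tefa (r = 0.735) and per1 (ENSDARG00000012499) with tefa (r = 0.701). Over the 20 libraries with stage left in, per1 and per3 were closest (r = 0.872), and per1 and per2 ran opposite (r = -0.421).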

How the data were processed

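The authors deposited 1 table of TPM values, rounded to 2 decimals, with 1 column per library and 32057 Ensembl gene IDs; all columns have the same sum, so read depth cannot be had from it and counting intervals are left out. The submitters' processing notes name the build GRCz11, the aligner STAR 2.7.3a, the counters HTSeq 0.12.3 and RSEM 1.3.3, and DESeq2 1.42.1; the sources used here do not tell which produced the TPM. Another 4 columns, empty and without a name, were left aside. Symbols came from a gene name table that matched 28988 IDs. Of 97 list entries 82 matched, 20 only once the letter of the paralog was removed.

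Genes with a mean of at least 1 TPM were fitted as log2(TPM + 1) with limma 3.58.1 (R 4.3.3), 1 mean per group over 20 libraries, 10 residual degrees of freedom and an intensity trend. Because of the added 1 TPM, fold changes of low genes are understated. P-values are two-sided. The members and lists were chosen with earlier results of these data known. Named were all members, the list genes called in the average of 10 to 16 hpf, up to 4 per list with the smallest p over stages, and the 5 genes most like cry5 and rorca; other list genes named (bmal2, cry3a, cry3b, cpdp, xpc) were added after their values were seen. Whether libraries of a group come from separate crosses is not in the labels; p-values then reflect the spread among these samples alone, which may be technical. Same-numbered libraries deviated together (correlations of 0.485 to 0.615 across genes at the 5 stages), so the numbers were taken to pair the samples, from the data and not the labels; the block fit has 5 residual degrees of freedom. The fit was also run on simulated data in which libraries varied independently. Such data hold no deviation shared by library number, so they cannot check the p-values under that sharing.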

Additional observations from a re-analysis of the deposited data

How the results depend on the processing

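Having 2 libraries per group, whole pools and an unknown depth limits these results, and genes under 1 TPM are hardly resolved. With the replicate block 2 members (cry5 and tefa) were called in the average of 10 to 16 hpf instead of 1, also with the developmental offset removed; the block changed no other call of a member's pool difference. That count was 0 within the libraries numbered 1, within those numbered 2, and over 12 to 16 hpf only, a window added after the data were seen; the smaller number of samples is part of these settings. Over all genes the average called 639, and 1964 with the block, 1797 with offset and block, 398 with a filter at 5 TPM, and 85 and 195 within numbers 1 and 2; 10 hpf called 30, and 444, 301 and 16 under the first 3 of these and 0 from the libraries of the stage only.

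At 8 hpf 1 member was called with the filter at 5 TPM or quantile normalization, and 0 from the libraries of the stage only, as at 10 hpf. The filter at 5 TPM leaves only cry5 and tefa and gave stage counts in PNP of 2 (16 minus 8 hpf), 0 (8 to 10), 1 (10 to 12), 1 (14 to 16) and 2 (F test). Quantile normalization gave 5 from 8 to 10 hpf and 2 from 12 to 14 hpf; the cause was not tested. It turned the sign of the per1 (ENSDARG00000012499) pool difference at 10 hpf (0.061) and 12 hpf (0.0080), of per3 in the average (0.013), and of the library number difference of cry5 (-0.0040), per1 (-0.016) and per3 (-0.10). The average of per3 was also above 0 with a pseudocount of 0.1 (0.0015), within the libraries numbered 1 (0.078) and over 12 to 16 hpf (0.059). The per2 difference at 16 hpf was 0.074 with the offset removed, with or without the block.

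Leaving out 1 library at a time, the call of cry5 in the average was kept each time. The calls of members in PNP from 10 to 12, from 14 to 16 and from 8 to 16 hpf were not all kept. Counts of members called ranged from 0 to 2 at 8 hpf, 0 to 1 at 10 hpf, 1 to 4 for 8 to 10 hpf, 0 to 1 for 12 to 14 hpf and 1 to 2 for the library number. Pool differences that crossed 0 in this way ranged from -0.14 to 0.099 for per1 (ENSDARG00000012499) at 10 hpf and -0.11 to 0.018 at 16 hpf. The ranges of per2 were -0.46 to 0.035 at 12 hpf, -0.19 to 0.029 at 14 hpf and -0.098 to 0.0100 at 16 hpf. Those of per3 were -0.23 to 0.41 at 12 hpf, -0.23 to 0.091 at 14 hpf, -0.082 to 0.077 in the average and -0.0020 to 0.10 for the library number. Those of cry5 at 14 hpf were -0.23 to 0.090, of rorca at 16 hpf -0.37 to 0.0014 and of tefa at 16 hpf -0.20 to 0.053.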
